A study of Mus musculus with 9 samples.

Results

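The genes that write, copy and remove DNA methylation were followed across 3 sorted populations of mouse leukaemic bone marrow. The 10 genes are Dnmt1, Dnmt3a, Dnmt3b, Uhrf1, Tet1, Tet2, Tet3, Tdg, Idh1 and Idh2. They were chosen by symbol, without use of their measured values, from a table of 24391 gene rows, and each had 1 row. Of these, 9 passed the filter on low counts and were tested, and Tdg did not pass.

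DNA methylation in mammals sits mainly on cytosines of CpG dinucleotides. DNMT1 copies it onto the new strand after replication, and UHRF1 brings DNMT1 to the sites where only the old strand is methylated. DNMT3A and DNMT3B place new methyl groups. TET1, TET2 and TET3 oxidise the methyl group with the help of 2-oxoglutarate, and the glycosylase TDG cuts out the most oxidised forms so that base excision repair can restore cytosine. IDH1 in the cytosol and IDH2 in mitochondria make 2-oxoglutarate from isocitrate. DNMT3A, TET2, IDH1 and IDH2 are among the genes mutated repeatedly in human acute myeloid leukaemia, and mutant IDH1 and IDH2 make 2-hydroxyglutarate, which inhibits TET enzymes. Gene counts report neither mutations, nor enzyme activity, nor methylation itself, and none of these was analysed here.

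The libraries were made from bone marrow of C57BL/6 mice labelled as 6 to 8 weeks old that carried leukaemia of the AML1-ETO9a model. AML1-ETO9a is a truncated form of the AML1-ETO fusion. Cells were sorted by surface CD43, a sialoglycoprotein of leukocytes, and c-Kit, the stem cell factor receptor, into CD43++ckit+, CD43+ckit- and CD43-ckit-, with 3 libraries each. All 3 populations share the fusion, the strain and the age, no marrow without leukaemia was analysed here, and the sources used here do not give how the fusion was introduced or whether animals were pooled. No label ties the 3 libraries of a population to separate animals. The p-values therefore measure only how these samples spread, and that spread may be technical. The comparisons ask in which of the sorted populations each enzyme's transcript is higher.

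Library totals ran from 17966197 to 31781746 counts, lowest in CD43-ckit-. Levels are given as CPM, the reads of a gene for a fixed number of reads in the library, scaled by TMM, a method that sets the libraries level on the bulk of their genes, and a gene was called at an edgeR adjusted p under 0.05. Kit transcript ranged from 146.0 to 175.5 CPM over the CD43++ckit+ libraries, from 7.80 to 21.03 CPM over those of CD43+ckit- and from 18.9 to 42.1 CPM over those of CD43-ckit-. Spn, which encodes CD43, was higher in CD43++ckit+ against CD43+ckit- by 1.37 on the log2 scale. Its comparisons with CD43-ckit- are not given here. Kit is 1 of 6 progenitor markers, which did not move together. Against CD43+ckit-, 2 of them (Kit and Myb) were called higher in CD43++ckit+ and 0 lower. Against CD43-ckit-, the same 2 were higher and 3 lower (Cd34, Flt3 and Hoxa9, each averaging at most 5.35 CPM). In CD43+ckit- against CD43-ckit-, 0 were higher and 4 lower, Kit among them. Summed over 8 erythroid markers, levels ran from 941.3 to 1673 CPM over the CD43++ckit+ libraries, from 12057 to 14416 CPM over those of CD43+ckit- and from 27932 to 43393 CPM over those of CD43-ckit-. All 6 tested erythroid markers, Alas2 and Klf1 among them, were called lower in CD43++ckit+ than in either other population. The beta-globin gene Hbb-bt was at 0 in every library and Hba-a1 close to it. Summed over 9 neutrophil markers, library 3 of CD43++ckit+ (6450 CPM) stood far above libraries 1 and 2 (373.5 and 102.0 CPM), and library 1 was the lowest in CD43+ckit- (526.6 against 2793 and 3550 CPM) and in CD43-ckit- (4291 against 16374 and 17018 CPM). None of the 9 neutrophil markers was called by edgeR in any comparison. Markers in 4 other lists were highest in CD43-ckit-. There the summed level of 6 B-lineage markers was 75.8 to 208.6 CPM (3.12 to 39.4 CPM over the other 6 libraries). It was 118.7 to 143.1 CPM (12.04 to 84.2) for 7 monocyte and macrophage markers and 19.95 to 34.9 CPM (1.04 to 19.2) for 7 T and NK markers. For 6 stromal and endothelial markers it was 23.9 to 30.9 CPM (1.67 to 8.62). Against CD43-ckit-, CD43++ckit+ was called lower for 6 of 6 tested B-lineage, 1 of 7 monocyte and macrophage, 4 of 7 T and NK and 2 of 4 stromal and endothelial markers, and CD43+ckit- for 4, 6, 2 and 2 of them. Between CD43++ckit+ and CD43+ckit- the calls in these 4 lists were 1 monocyte and macrophage marker higher and 1 stromal and endothelial marker lower. The part of these cells in the enzyme results was not tested. A neutrophil covariate is given below, but it largely follows the population in the comparisons with CD43-ckit-. The mean log2 CPM of its markers was at least 8.38 in each CD43-ckit- library and at most 8.01 for CD43+ckit-. In libraries 1, 2 and 3 of CD43++ckit+ that mean was 4.85, 3.06 and 8.90. A call lost with this covariate therefore cannot show the part of neutrophils. In bulk RNA, fewer cells of a type and less RNA per cell cannot be told apart. The erythroid levels separate the 3 populations without overlap, so erythroid content and sorted population cannot be told apart in any result here. No enzyme below can be assigned to one cell type.

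CD43++ckit+ had the most transcript of most of these genes. Against CD43+ckit-, 4 of the 9 tested genes were called higher (Dnmt3a, Dnmt3b, Tet2 and Idh2) and 0 lower. Of all 12573 tested genes 39.8% were called in that comparison, 19.7% as higher and 20.1% as lower. Against CD43-ckit-, 7 were higher (Dnmt1, Dnmt3a, Dnmt3b, Uhrf1, Tet2, Tet3 and Idh2) and 1 lower (Tet1), beside 67.4% of all genes called, 39.7% as higher and 27.7% as lower. In CD43+ckit- against CD43-ckit-, 3 were higher (Dnmt1, Uhrf1 and Tet3) and 2 lower (Tet1 and Idh1), beside 51.9% of all genes called, 31.0% as higher and 20.9% as lower. The median log2 fold change of the 9 genes was 0.71, 1.23 and 0.35 in these comparisons, beside 0.01, 0.19 and 0.13 over all tested genes. In the joint test of the 3 populations 8 of the 9 were called, all but Idh1 (adjusted p = 0.0516), beside 74.8% of all genes. The 3 comparisons share libraries pairwise, so their counts are not independent of each other. Libraries did not overlap between populations for 5, 8 and 4 of the 9 genes in the same order, where 55.5%, 73.2% and 64.3% of all genes did not.

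**Figure D1:**
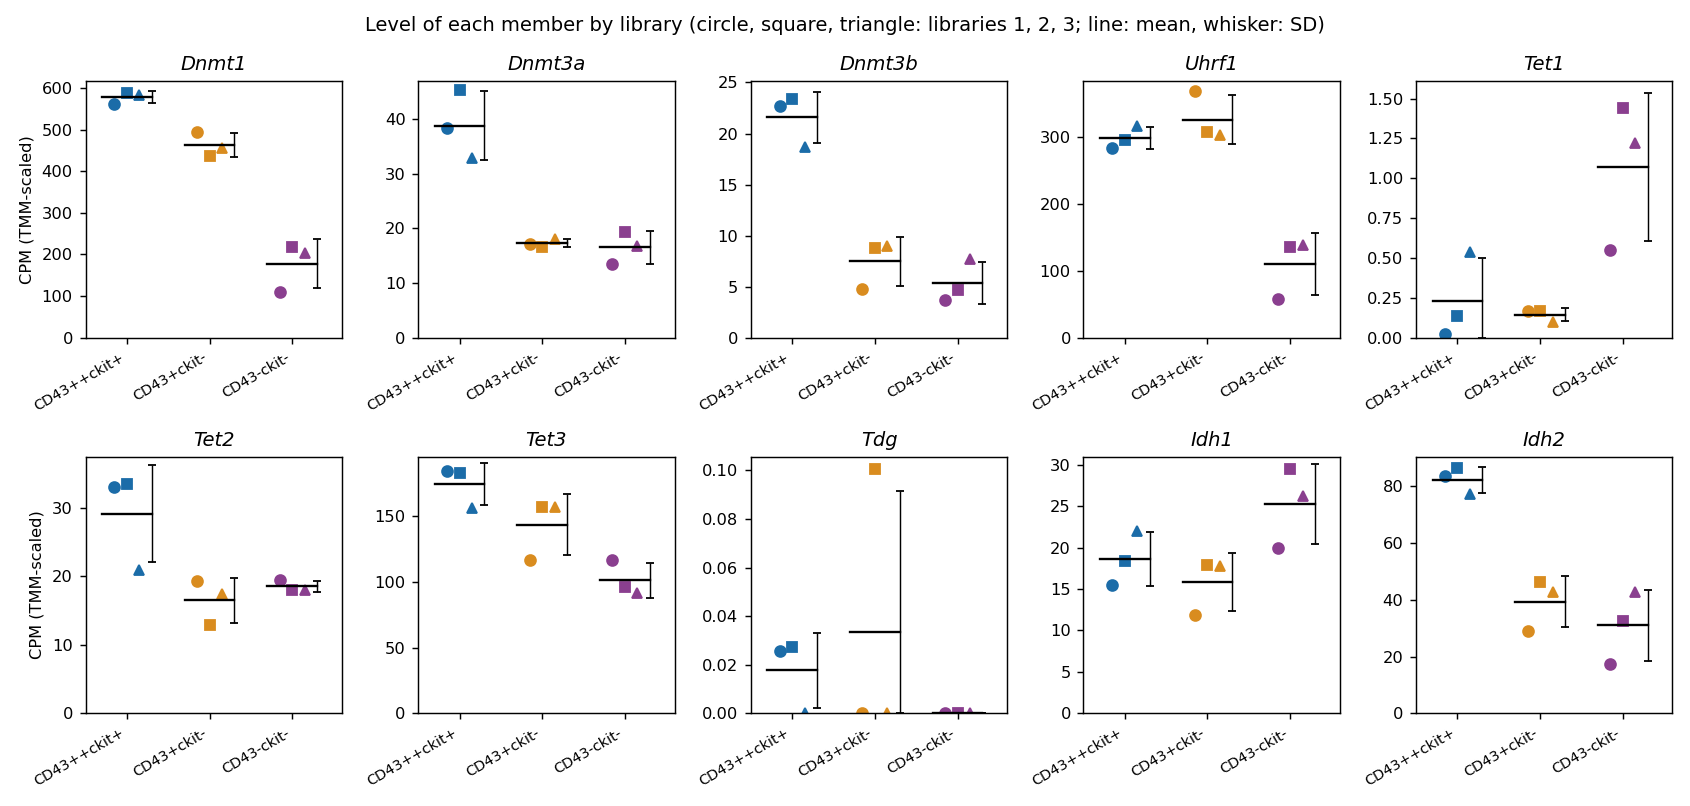
Level of each gene in TMM-scaled CPM (y axis, from 0) in the 3 populations (x axis), with circles, squares and triangles for libraries 1, 2 and 3, a line for the mean of 3 libraries and a whisker for the SD, cut at 0. Dnmt1 and Uhrf1 stayed high in CD43++ckit+ and CD43+ckit- and were low in CD43-ckit-, while Dnmt3a, Dnmt3b and Idh2 were high in CD43++ckit+ alone.

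The maintenance pair, Dnmt1 and Uhrf1, was high in both CD43-positive populations and low in CD43-ckit-. Dnmt1, the methyltransferase that copies methylation, stood at 561.2, 588.8 and 584.2 CPM in the CD43++ckit+ libraries, 494.9, 437.9 and 455.4 CPM in those of CD43+ckit- and 110.4, 219.1 and 203.8 CPM in those of CD43-ckit-. The 3 populations did not overlap, and library 1 of CD43-ckit- was the lowest of all. Dnmt1 was higher than in CD43-ckit- by 1.70 ± 0.23 (log2 fold change ± SE, adjusted p = 0.00022) in CD43++ckit+ and by 1.38 ± 0.23 (adjusted p = 0.00134) in CD43+ckit-. In CD43++ckit+ against CD43+ckit- the Dnmt1 difference was 0.32 with a 95% interval of -0.19 to 0.83 (adjusted p = 0.294), although the libraries did not overlap. Leaving out library 1 of CD43-ckit- gave a call for it (0.32, adjusted p = 0.0148), as did a fit of those populations alone (0.34, adjusted p = 0.0139) and a fit with the library that correlated least left out in each population (0.36, adjusted p = 0.0109).

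Uhrf1, the reader that guides DNMT1, stood at 282.9, 295.2 and 316.5 CPM in the CD43++ckit+ libraries, 367.9, 307.3 and 302.7 CPM in those of CD43+ckit- and 57.2, 135.4 and 138.0 CPM in those of CD43-ckit-. The CD43-positive populations overlapped, and the CD43-ckit- libraries lay apart below them. Uhrf1 was higher than in CD43-ckit- by 1.44 ± 0.29 (adjusted p = 0.00199) in CD43++ckit+ and by 1.56 ± 0.29 (adjusted p = 0.00238) in CD43+ckit-, and between the CD43-positive populations the value was -0.13 with an interval of -0.77 to 0.51 (0.15 with library totals as the scale, not called on either scale). The 4 calls against CD43-ckit- were kept under each alternative run. Of the 50-base words in Uhrf1 transcripts 84.6% are unique to the gene in the reference, and others recur in the predicted gene Gm5648, so part of its counts is uncertain.

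Among the 36 pairs of tested genes, Dnmt1 and Uhrf1 had the closest profiles over the 9 libraries, with a root-mean-square difference of 0.21 in centred log2 CPM. The next pair was Dnmt3b and Idh2 at 0.29. Of 8307 genes searched, those nearest to Dnmt1 were Fanci (0.07), a Fanconi anaemia protein of crosslink repair, Mcm3 (0.088), a subunit of the replicative helicase, and Rad54l (0.089), a recombination factor. Those nearest to Uhrf1 were Cdt1 (0.063), which licenses replication origins, Pxmp2 (0.080), a peroxisomal membrane protein, and Chaf1a (0.090), a subunit of the chaperone that lays down histones behind the fork. These are likenesses over 9 libraries in 3 groups, given as a description.

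Because Dnmt1 and Uhrf1 moved together, their promoter windows (the 250 bases before each RefSeq transcript start, build GRCm38.p6, the tables holding 16 windows for the 10 genes) were searched on both strands for words that E2F factors, regulators of replication genes, are known to bind. The words were TTTCCCGC, TTTCGCGC, TTTGCCGC and TTTGGCGC, and CCAAT was searched as well. An E2F word occurred in 2 of the 16 windows, 1 of Dnmt1 and 1 of Uhrf1, and in 611 of 32851 windows of all genes (1.86%). Each E2F word holds a CpG, and these 2 windows held 26 and 30 CpG dinucleotides against a median of 6 over all windows. The share over all windows was not matched for CpG content, so it cannot show an enrichment. A CCAAT word occurred in 8 of the 16 windows, those of Tet3, Tdg and Idh2 and 1 of Idh1 among them, and in 33.8% of all windows. The 2 matches are shown in 30 bases each, read along the gene's strand, with the E2F word in capitals (for Dnmt1 as the complement on that strand). They lie at chr9:20952824-20952853 (minus strand) and chr17:56304117-56304146 (plus strand).
Dnmt1: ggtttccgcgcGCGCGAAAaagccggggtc
Uhrf1: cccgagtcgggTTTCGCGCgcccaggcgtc

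The Dnmt1 match lies in a window that overlaps an exon of another Dnmt1 transcript, and 2 further Dnmt1 windows held no match. The Uhrf1 match lies upstream of the start that its window precedes and in no exon of the annotation. Another Uhrf1 window, chr17:56303087-56303336 (plus strand), held no E2F word, and the match lies downstream of the start there. The whole Uhrf1 window that holds the match, chr17:56304063-56304312 (plus strand), is shown with its E2F word and 2 CCAAT words in capitals. Below it is the Dnmt3b window, chr2:153649199-153649448 (plus strand), as a window of a de novo enzyme that held neither word.
Uhrf1: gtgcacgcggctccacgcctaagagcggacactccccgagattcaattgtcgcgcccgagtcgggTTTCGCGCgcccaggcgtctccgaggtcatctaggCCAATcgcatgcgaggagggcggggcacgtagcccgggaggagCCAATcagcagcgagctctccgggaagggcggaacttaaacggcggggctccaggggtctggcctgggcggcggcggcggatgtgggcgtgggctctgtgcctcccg
Dnmt3b: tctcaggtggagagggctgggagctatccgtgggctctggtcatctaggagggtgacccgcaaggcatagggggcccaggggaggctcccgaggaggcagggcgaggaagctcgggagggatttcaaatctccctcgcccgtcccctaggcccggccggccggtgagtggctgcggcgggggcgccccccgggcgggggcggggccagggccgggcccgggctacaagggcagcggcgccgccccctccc
Both windows are rich in CpG, with 30 CpG dinucleotides in the Uhrf1 window and 21 in the Dnmt3b window against a median of 6 over all windows. These are matches of letters, not measured binding sites, and no methylation of these windows was analysed here.

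The de novo enzymes, Dnmt3a and Dnmt3b, were high in CD43++ckit+ and low in both other populations. Dnmt3a stood at 38.4, 45.4 and 32.8 CPM in the CD43++ckit+ libraries, 17.2, 16.7 and 18.1 CPM in those of CD43+ckit- and 13.4, 19.3 and 16.9 CPM in those of CD43-ckit-. All CD43++ckit+ libraries lay above all others, and the other populations overlapped. Dnmt3a was higher in CD43++ckit+ by 1.17 ± 0.17 (adjusted p = 0.00109) than in CD43+ckit- and by 1.23 ± 0.17 (adjusted p = 0.00028) than in CD43-ckit-. In CD43+ckit- against CD43-ckit- its difference was 0.06 with an interval of -0.33 to 0.45 (adjusted p = 0.766), and 6 alternatives gave a value below 0 without a call. Of the alternatives run, library totals as the scale gave the one call there (0.69, adjusted p = 0.0209). Strand handling is not given, so reads of the antisense gene Dnmt3aos cannot be told apart from those of Dnmt3a where they overlap.

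Dnmt3b stood at 22.7, 23.4 and 18.7 CPM in the CD43++ckit+ libraries, 4.74, 8.75 and 9.01 CPM in those of CD43+ckit- and 3.69, 4.71 and 7.68 CPM in those of CD43-ckit-. The pattern over populations was that of Dnmt3a, with CD43++ckit+ apart and the others overlapping. Dnmt3b was higher in CD43++ckit+ by 1.52 ± 0.32 (adjusted p = 0.00521) than in CD43+ckit- and by 2.01 ± 0.33 (adjusted p = 0.00061) than in CD43-ckit-, the latter being 4.02-fold. Between the others its difference was 0.48 with an interval of -0.24 to 1.21 (adjusted p = 0.22), called with library totals (1.10, adjusted p = 0.0309) and with the library that correlated least left out in each population (0.53, adjusted p = 0.0199). Of the 50-base words in Dnmt3b transcripts 90.2% are unique to it, and others recur in its copy Dnmt3c. The 4 calls of the de novo enzymes in CD43++ckit+ against the others were kept under each alternative run. The genes nearest to Dnmt3a in profile were Socs6, a cytokine signalling suppressor (0.11), Rbpj, the DNA-binding factor of Notch signalling (0.11), and Ttc7b (0.12). Those nearest to Dnmt3b were Fpgs, which adds glutamates to folates (0.12), Tmem97 (0.12) and Mettl1, a tRNA methyltransferase (0.13).

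**Figure D2:**
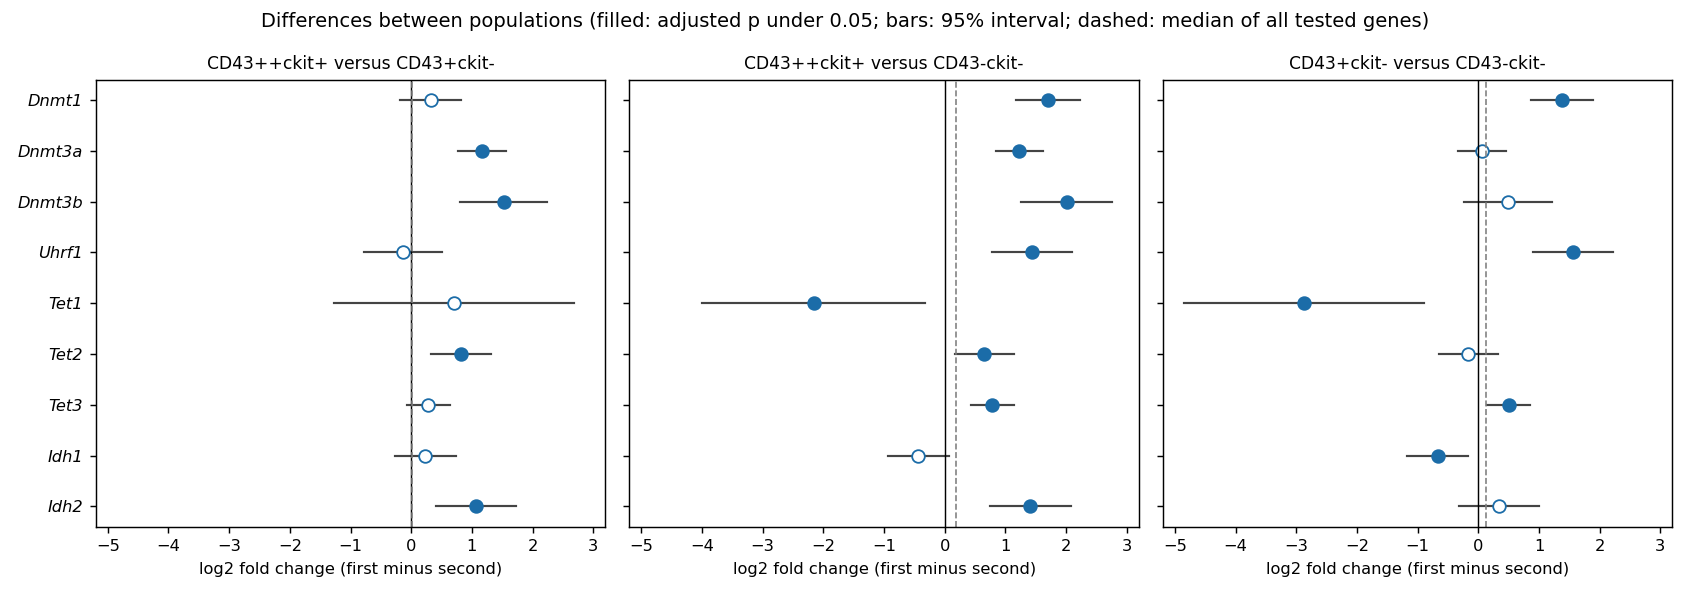
Log2 fold change of each tested gene (x axis, first-named population minus the second) in the 3 comparisons, with bars for the 95% interval, filled circles for edgeR adjusted p under 0.05 and a dashed line at the median of all tested genes. Dnmt1 and Uhrf1 are filled in the comparisons with CD43-ckit- only, and Dnmt3a, Dnmt3b, Tet2 and Idh2 in the comparisons with CD43++ckit+ only.

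Of the TET dioxygenases, which start demethylation, Tet2 and Tet3 had their highest means in CD43++ckit+, and Tet1, on few reads, in CD43-ckit-. Tet2 stood at 33.1, 33.5 and 20.9 CPM in the CD43++ckit+ libraries, 19.3, 12.8 and 17.4 CPM in those of CD43+ckit- and 19.5, 18.1 and 18.01 CPM in those of CD43-ckit-. Library 3 of CD43++ckit+ lay close to the other populations, yet no library of theirs reached it. Tet2 was higher in CD43++ckit+ by 0.82 ± 0.22 (adjusted p = 0.0147) than in CD43+ckit- and by 0.65 ± 0.22 (adjusted p = 0.0237) than in CD43-ckit-, and between the others it differed by -0.17 with an interval of -0.65 to 0.32 (adjusted p = 0.527). The first call ended when library 1 or 2 of CD43++ckit+ was left out (adjusted p = 0.0608 and 0.0597). The second was lost without either of these (0.078 for both), without library 2 or 3 of CD43-ckit- (0.0657 and 0.0619), with DESeq2 size factors (0.41, adjusted p = 0.101) and with the strict filter on low counts (0.49, adjusted p = 0.0517), and with the neutrophil marker mean as a covariate it was 0.12 (adjusted p = 0.667).

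Tet3 was the most abundant TET transcript per length, highest in CD43++ckit+ and lowest in CD43-ckit- by its means. It stood at 184.0, 182.5 and 156.1 CPM in the CD43++ckit+ libraries, 116.5, 156.8 and 156.6 CPM in those of CD43+ckit- and 116.5, 95.9 and 91.5 CPM in those of CD43-ckit-. Neighbouring populations overlapped, while CD43++ckit+ and CD43-ckit- lay apart. Tet3 was higher in CD43++ckit+ against CD43-ckit- by 0.78 ± 0.16 (adjusted p = 0.00197), a call kept under each alternative. CD43+ckit- exceeded CD43-ckit- by 0.50 ± 0.16 (adjusted p = 0.0258), and CD43++ckit+ exceeded CD43+ckit- by 0.28 with an interval of -0.07 to 0.64 (adjusted p = 0.187, called with library totals at 0.54, adjusted p = 0.0135). The call between CD43+ckit- and CD43-ckit- was lost when library 2 or 3 of either was left out (adjusted p between 0.0757 and 0.0994), with DESeq2 size factors (0.31, adjusted p = 0.124) and with the neutrophil covariate (0.45, adjusted p = 0.0659).

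Tet1 was near the limit of detection, and its few reads pointed the other way. It had 1, 5 and 24 reads in the CD43++ckit+ libraries, 5, 5 and 3 in those of CD43+ckit- and 7, 22 and 17 in those of CD43-ckit-, which is 0.026, 0.14 and 0.54 CPM, 0.17, 0.17 and 0.096 CPM, and 0.55, 1.44 and 1.22 CPM. The 4 libraries highest in Tet1 CPM were those of CD43-ckit- and library 3 of CD43++ckit+, which were also the 4 with the highest neutrophil marker sums. Tet1 was lower than in CD43-ckit- by -2.16 ± 0.81 (adjusted p = 0.0402) in CD43++ckit+ and by -2.87 ± 0.88 (adjusted p = 0.0227) in CD43+ckit-. The first call was lost in 6 of 9 fits that left out 1 library and the second in 5 of 9 (adjusted p up to 0.121 and 0.0808). With the neutrophil covariate the values were -0.84 (adjusted p = 0.341) and -1.72 (adjusted p = 0.0779), and with library totals -1.25 (adjusted p = 0.218) and -2.27 (adjusted p = 0.0583). In CD43++ckit+ against CD43+ckit- the Tet1 value was 0.71 (adjusted p = 0.569), which became -0.81 without library 3 of CD43++ckit+.

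Tdg, the glycosylase downstream of the TET enzymes, was listed at 1, 1 and 0 reads in CD43++ckit+, 0, 3 and 0 in the CD43+ckit- libraries and 0 in each CD43-ckit- library. A count of 0 allows up to 3 reads, which is 0.067 to 0.24 CPM over the libraries (counting error only), and no population difference was detectable at this depth. Of the 50-base words in Tdg transcripts, 58.8% are unique to it, and others recur in Tdg-ps, Gm9855, Gm5597 and further genes. How reads with several matches were counted is not given in the sources used here, so the near-zero Tdg row cannot be read as absence of its transcript.

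The isocitrate dehydrogenases followed different courses. Idh2, the mitochondrial enzyme, stood at 83.5, 86.3 and 77.3 CPM in the CD43++ckit+ libraries, 29.2, 46.2 and 42.9 CPM in those of CD43+ckit- and 17.5, 32.7 and 42.7 CPM in those of CD43-ckit-. CD43++ckit+ lay far above both others, which overlapped. Idh2 was higher in CD43++ckit+ by 1.06 ± 0.29 (adjusted p = 0.018) than in CD43+ckit- and by 1.41 ± 0.30 (adjusted p = 0.00248) than in CD43-ckit-, and between the others by 0.35 with an interval of -0.31 to 1.01 (adjusted p = 0.329; called with library totals at 0.95, adjusted p = 0.0468). Without library 1 of CD43+ckit- the first difference was 0.885 (adjusted p = 0.0583), and without library 1 of CD43++ckit+ its adjusted p was 0.05001.

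Idh1, the cytosolic enzyme, stood at 15.5, 18.4 and 22.02 CPM in the CD43++ckit+ libraries, 11.9, 17.9 and 17.8 CPM in those of CD43+ckit- and 19.95, 29.5 and 26.3 CPM in those of CD43-ckit-. Its highest libraries were libraries 2 and 3 of CD43-ckit-, and only CD43+ckit- lay wholly below CD43-ckit-. Idh1 was lower in CD43+ckit- against CD43-ckit- by -0.67 ± 0.22 (adjusted p = 0.0323), and CD43++ckit+ differed from CD43-ckit- by -0.44 with an interval of -0.94 to 0.07 (adjusted p = 0.107). The Idh1 call ended when library 1 or 3 of CD43+ckit- was left out or, from CD43-ckit-, library 2 or 3 (adjusted p between 0.0543 and 0.115), and with the neutrophil covariate (-0.41, adjusted p = 0.138). With library totals the difference was -0.04 (adjusted p = 0.907). In CD43++ckit+ against CD43-ckit- the Idh1 difference was called without the least correlated libraries (-0.71, adjusted p = 9.39e-05) and with DESeq2 size factors (-0.68, adjusted p = 0.0313), and with library totals it was 0.46 (adjusted p = 0.179).

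These shifts with the scale apply to all genes. With library totals in place of TMM the median log2 fold change of all tested genes was 0.28, 1.11 and 0.78 in the 3 comparisons, and the share of calls that were higher rose from 49.4% to 67.0%, from 58.9% to 82.2% and from 59.7% to 85.2%. With DESeq2 size factors that share was 45.0%, 49.5% and 45.8%. Measured from the median of all genes, each of the 9 genes kept its direction on all 3 scales in all comparisons. For Idh1 against CD43-ckit-, that distance was -0.63 with TMM and -0.64 with library totals in CD43++ckit+. A change of scale shifts all genes nearly alike, and subtracting the median removes that shift. The kept directions were therefore set in advance and back no call.

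A ratio of 2 transcripts within a library needs no scale. Of 9 ratios computed, 4 differed among the populations in an exact permutation test over all arrangements of the libraries, adjusted over the 9 (the smallest p it can give is 0.00357). Idh1 reads per Idh2 read were 0.186, 0.214 and 0.285 in CD43++ckit+, 0.407, 0.387 and 0.416 in the CD43+ckit- libraries and 1.14, 0.902 and 0.615 in those of CD43-ckit-. The 3 populations did not overlap, and the mean log2 ratio was -2.16, -1.31 and -0.22 (exact permutation p = 0.00357, adjusted p = 0.0161). Dnmt1 reads per Dnmt3a read were 14.6, 12.96 and 17.8 in CD43++ckit+, 28.8, 26.2 and 25.2 in the CD43+ckit- libraries and 8.20, 11.3 and 12.1 in those of CD43-ckit-. CD43+ckit- had the most Dnmt1 reads per Dnmt3a read, again without overlap (exact permutation p = 0.00357, adjusted p = 0.0161). Both of these ratios kept their adjusted p under the threshold without any one library.

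Dnmt1 reads per Tet2 read averaged 20.3, 28.4 and 9.18 in the same order (geometric means, exact permutation adjusted p = 0.0321), and Uhrf1 reads per Dnmt1 read 0.52, 0.70 and 0.60 (adjusted p = 0.0402). The CD43++ckit+ libraries, at 0.50, 0.50 and 0.54, lay below all CD43+ckit- libraries, at 0.74, 0.70 and 0.66, in the Uhrf1 ratio. The Dnmt1 to Tet2 ratio missed the threshold without library 1 of CD43++ckit+ or, for CD43+ckit-, library 2 or 3 (exact permutation adjusted p from 0.0536 to 0.0643). The Uhrf1 to Dnmt1 ratio missed it in 7 of the 9 sets with 1 library left out (up to 0.121). Ratios of Dnmt3b to Dnmt3a, Dnmt3a to Tet2, Tet3 to Tet2 and Tet1 to Tet2 did not pass (exact permutation adjusted p = 0.0836, 0.105, 0.0872 and 0.0872). The Tet1 to Tet2 ratio did so without library 3 of CD43++ckit+ (exact permutation adjusted p = 0.0161) and with 5 in place of 0.5 added to each count (0.0321), as did Tet3 to Tet2 without library 1 of CD43+ckit- (adjusted p = 0.0402). The ratio of Tdg to Tet2 rests on the few Tdg reads and is not read here.

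**Figure D3:**
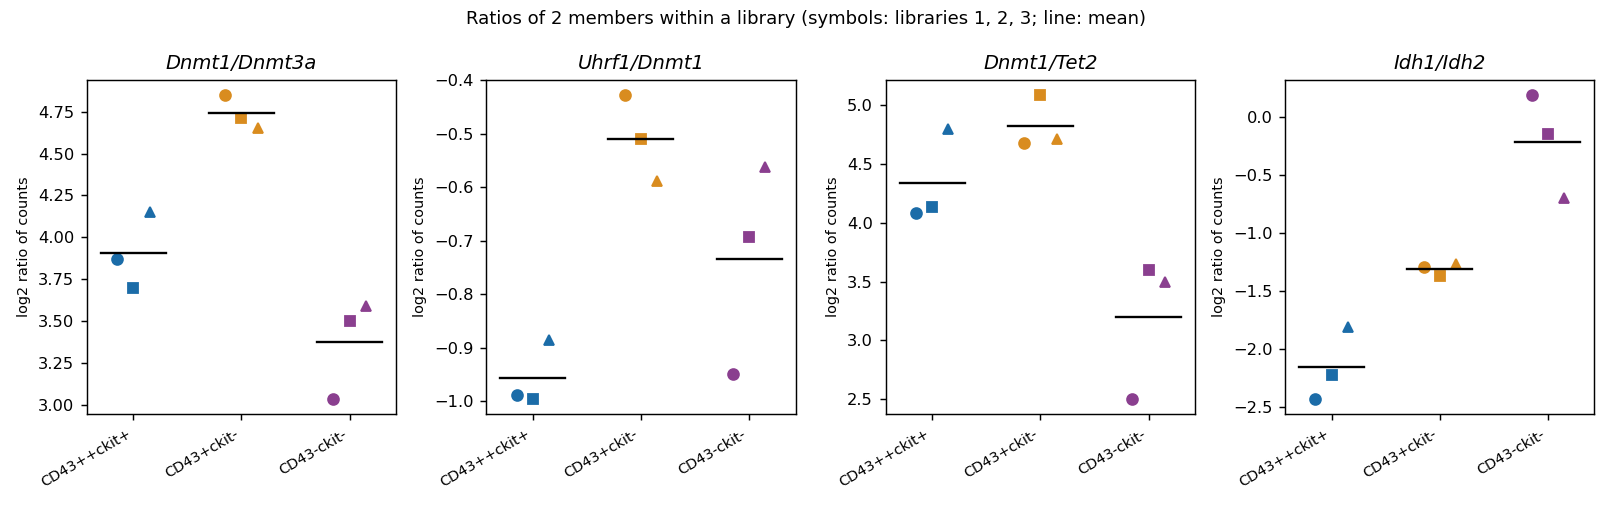
Log2 ratio of the counts of 2 genes within each library (y axis) for the 4 ratios with an exact permutation adjusted p under 0.05, by population (x axis), with circles, squares and triangles for libraries 1, 2 and 3 and a line for the mean. Idh1/Idh2 rises from -2.16 to -0.22 across the populations, and Dnmt1/Dnmt3a is highest in CD43+ckit-, at 4.74.

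DNMT1 and UHRF1 work at the replication fork, so each gene was also set against 22 replication genes, such as Mcm2, Mcm7 and Pcna, in the same library. The mean log2 CPM of these genes was 6.87, 6.84 and 5.47 in CD43++ckit+, CD43+ckit- and CD43-ckit-, with library 1 of CD43-ckit- the lowest at 4.90. Between CD43++ckit+ and CD43+ckit- 0 of the 22 were called higher and 2 lower (Rrm2 and Fen1), with a median of 0.06. Against CD43-ckit-, 21 were higher in CD43++ckit+ and 1 lower (Rrm2), with a median of 1.47, and 21 were higher in CD43+ckit- and 0 lower, with a median of 1.39. Rrm1 (1.05 and 1.38), a ribonucleotide reductase subunit, Mcm10 (1.23 and 1.13), a helicase activator, and Cdc6 (1.48 and 1.73), an origin loading factor, give the size of these log2 differences.

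On this scale Uhrf1 was 1.35, 1.504 and 1.21 log2 units above the replication mean and did not pass the exact permutation test among the populations (adjusted p over 9 genes = 0.0857), though it passed without library 2 of CD43-ckit- (adjusted p = 0.0241). Dnmt1 was 2.30, 2.01 and 1.94 above it, with the CD43++ckit+ libraries above all others (exact permutation adjusted p = 0.0321). That range of 0.36 in Dnmt1 compares with a log2 difference of 1.70 between CD43++ckit+ and CD43-ckit- without the reference. Dnmt3b was lowest in CD43+ckit-, at -2.44, -3.98 and -3.10 in the same order, and Tet2 too, at -2.04, -2.81 and -1.25 (exact permutation adjusted p = 0.0161 for each). In both, the 3 populations did not overlap. Dnmt3a was at -1.60, -2.72 and -1.43 and Idh2 at -0.51, -1.56 and -0.61 (exact permutation adjusted p = 0.0321 for each), so that per replication transcript these genes were lower in all CD43+ckit- libraries than in any other. Idh1 stood at -2.66, -2.87 and -0.83 (adjusted p = 0.0375), Tet3 at 0.57, 0.31 and 1.19 (0.0402) and Tet1 at -8.99, -9.08 and -5.38 (0.0402) in the same exact permutation test.

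Of the 9 genes 8 passed on this scale. The replication mean itself was 6.87 in CD43++ckit+, 6.84 in CD43+ckit- and 5.47 in CD43-ckit-. A gene that did not fall with it can therefore differ on this scale. The share of all genes that would pass was not computed, so the count is not read as a result about these genes. Dnmt3b and Tet2 kept an adjusted p under 0.05 without any one library. The others missed it in at least 2 of the 9 sets with 1 library left out, with exact permutation adjusted p up to 0.0689 for Dnmt1 and Idh2, 0.0536 for Dnmt3a, Tet1 and Idh1 and 0.243 for Tet3. Without library 1 of CD43-ckit-, where replication genes were lowest, 2 genes passed.

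**Figure D4:**
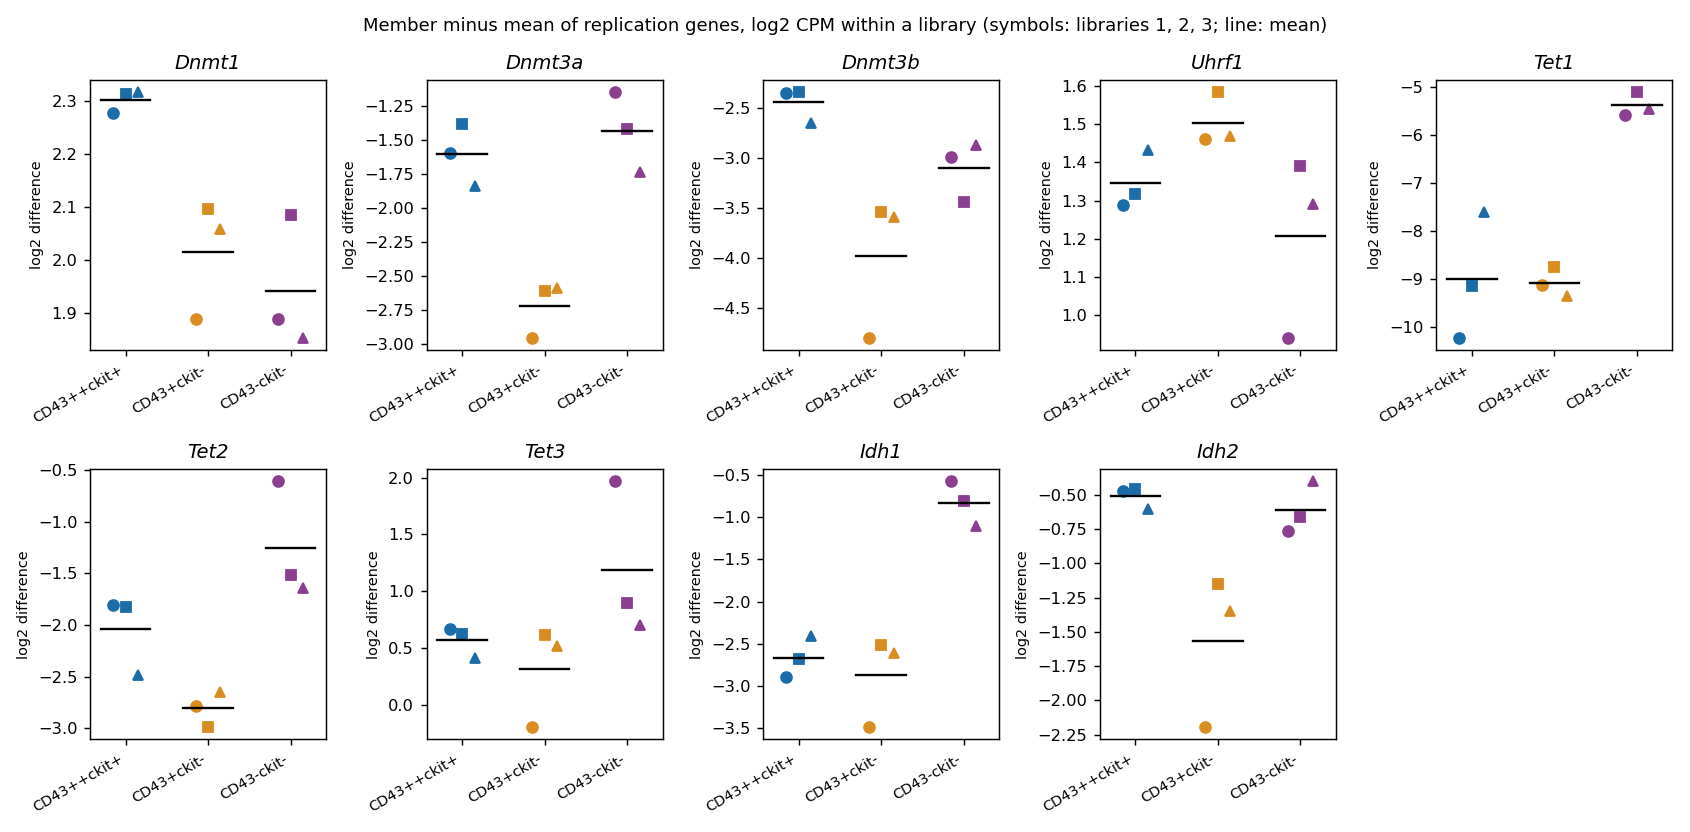
Log2 CPM of each gene minus the mean log2 CPM of 22 replication genes in the same library (y axis, a separate range for each gene), by population (x axis), with circles, squares and triangles for libraries 1, 2 and 3 and a line for the mean. Dnmt3a, Dnmt3b, Tet2 and Idh2 are lowest in CD43+ckit-, whereas Uhrf1 spans less than Dnmt3b, from 1.21 to 1.504 in its means.

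Levels of different genes can be compared only per length. Divided by the kilobases of the longest coding transcript in GENCODE release M21, Dnmt1 and Uhrf1 had the highest values of the 10 genes, at 98.5 and 83.2 CPM per kb in CD43++ckit+, 78.8 and 90.9 for CD43+ckit- and 30.3 and 30.7 for CD43-ckit-. Idh2 followed at 47.2, 22.6 and 17.7 CPM per kb and Tet3 at 16.0, 13.1 and 9.29. Idh1 was at 8.10, 6.89 and 11, passing Tet3 in CD43-ckit-. Dnmt3b (4.99, 1.74 and 1.24), Dnmt3a (4.01, 1.79 and 1.71) and Tet2 (3.18, 1.8 and 2.02 CPM per kb) lay close together. Among these 3 genes, neighbours in the order differed by less than the SD over 3 libraries in CD43+ckit-. Tet1 was at 0.016, 0.010 and 0.074 CPM per kb. With the median coding transcript, which is 814 bases for Dnmt3a against 9685 for the longest, Dnmt3a was at 47.7, 21.2 and 20.3 CPM per kb, and 23 of the 30 values moved by more than 1 SD. On that scale Idh1 came first in CD43-ckit-, at 33.4 CPM per kb beside 32.6 for Dnmt1 and 32.4 for Uhrf1, and Tet1, at 1.89, stood above Dnmt3b, at 1.295, there. The order of the genes thus depends on the transcript assumed, although Dnmt1, Uhrf1 and Idh2 took the first 3 places in CD43++ckit+ and CD43+ckit- with either.

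**Figure D5:**
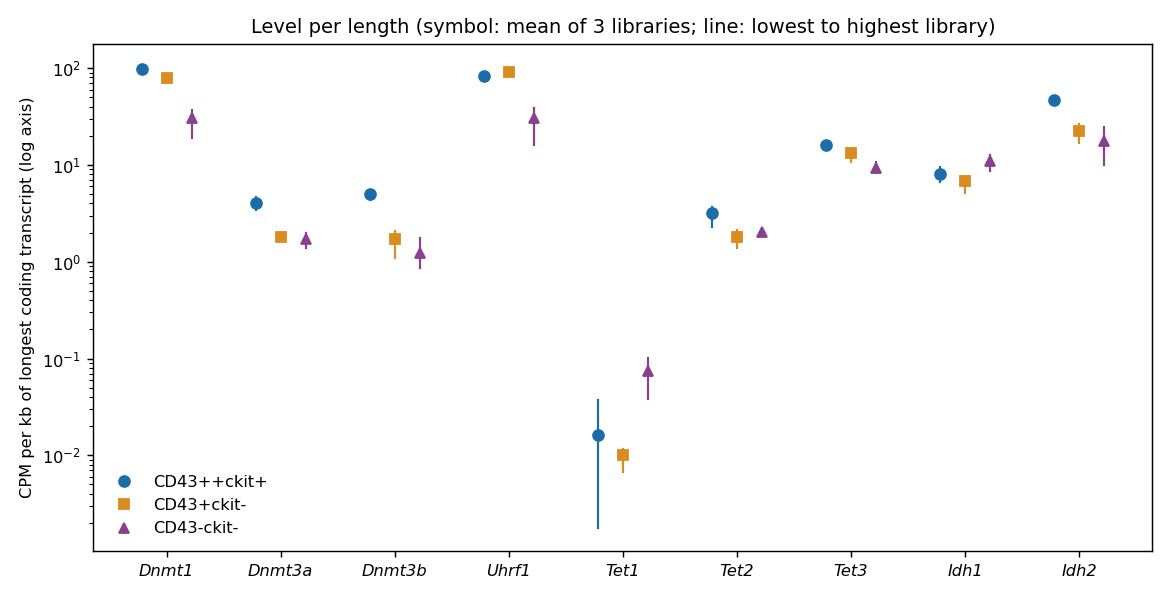
Level of 9 genes (x axis, Tdg left out) in CPM per kb of the longest coding transcript (y axis, log scale) in the 3 populations, with a symbol for the mean of 3 libraries and a line from the lowest to the highest library. Dnmt1 and Uhrf1 stand at the top, from 30.3 to 98.5 in their means, and Tet1 at the bottom, at or below 0.074, on this transcript length.

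The profiles nearest to the remaining genes, by the same measure, were those of Bzw1 (0.078), Etf1 (0.083), a translation termination factor, and Cct4 (0.083), a chaperonin subunit, for Tet2, and of Mrrf (0.11), Hsd17b4 (0.11) and Zfp652 (0.11) for Tet3. For Idh2 they were Gimap9 (0.10), Nhp2 (0.11), a small nucleolar ribonucleoprotein, and Cops7a (0.12), and for Idh1 Arap1 (0.13), Nfic (0.15) and Ndst1 (0.16). The nearest to Tet1, Marcksl1 (0.47), Gca (0.48) and Emilin1 (0.51), were far less alike.

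The partners of the methyltransferases were mostly higher in CD43++ckit+. Of 10 tested cofactor genes, 8 were higher and 1 lower in CD43++ckit+ against either population, and between the others 4 were higher and 1 lower in CD43+ckit- (median 0.54, 1.36 and 0.52). By the smallest joint p these were Ehmt1 (0.50, 1.34 and 0.84), a histone H3 lysine 9 methyltransferase, Cdca7l (1.84, 2.11 and 0.27) and Setdb1 (0.53, 1.33 and 0.80), another such methyltransferase. The lower gene in CD43++ckit+ was Usp7 (-1.001 and -1.24 against CD43+ckit- and CD43-ckit-), the deubiquitinase that binds DNMT1 and UHRF1, and the lower gene in CD43+ckit- against CD43-ckit- was Trim28 (-0.40, adjusted p = 0.0267), a corepressor. Hells, the remodelling factor that opens DNA to methylation, and its activator Cdca7 were named after their values were seen. Hells averaged 30.01 ± 9.89 CPM in CD43++ckit+, 10.8 ± 5.17 CPM for CD43+ckit- and 6.42 ± 2.42 CPM for CD43-ckit- (SD, n = 3), and Cdca7 90.2 ± 15.3, 20.7 ± 3.1 and 30.7 ± 10.5 CPM. Both were higher in CD43++ckit+ against CD43+ckit- (1.47 and 2.12, adjusted p = 0.02 and 0.00062), the course of the de novo enzymes, while Pcna, the replication clamp that DNMT1 binds, was not called there (0.04) and differed from CD43-ckit- by 1.39 and 1.35.

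The supply of the methyl donor S-adenosylmethionine followed a similar course in part. Of 10 tested genes 4 were higher and 2 lower in CD43++ckit+ against CD43+ckit-, 7 and 2 against CD43-ckit-, and 6 higher and 1 lower in CD43+ckit- against CD43-ckit-. Mat2a, the synthase that makes it, averaged 306.9 ± 50.6, 152.5 ± 18.4 and 114.0 ± 11.2 CPM in the 3 populations (SD, n = 3) and was higher by 1.01 and 1.43 in CD43++ckit+. Mtap, which salvages its by-product methylthioadenosine, was higher by 2.65 and 2.64.

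Genes around the TET enzymes moved in both directions. Of 12 tested TET partners 2 were higher and 4 lower in CD43++ckit+ against CD43+ckit-, 1 and 6 against CD43-ckit-, and 0 and 3 in CD43+ckit- against CD43-ckit-. Wt1, the transcription factor that recruits TET2, averaged 78.6 ± 14.1, 16.2 ± 5.33 and 10.4 ± 4.24 CPM (SD, n = 3). It was higher in CD43++ckit+ by 2.28 and 2.91 and not called between the others (0.63, adjusted p = 0.147), the same set of calls as Tet2 had. Mgea5, which removes O-linked N-acetylglucosamine (-0.88 and -1.95), and Ddb1, an adaptor of CUL4 ubiquitin ligases (-0.69 and -0.81), were lower in CD43++ckit+.

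For the supply and loss of 2-oxoglutarate, 22 genes were tested, of which 8 were higher and 6 lower in CD43++ckit+ against CD43+ckit-, 14 and 4 against CD43-ckit-, and 12 and 1 in CD43+ckit- against CD43-ckit-. Idh3a, a subunit of the NAD-dependent isocitrate dehydrogenase of mitochondria, was higher in CD43++ckit+ by 1.47 and 2.13, as Idh2 was. Cs, citrate synthase (-0.48 and 0.61), and Aco1, the cytosolic aconitase that makes the isocitrate used by IDH1 (-1.24 and -0.60), were lower in CD43++ckit+ against CD43+ckit-. D2hgdh, which clears a form of 2-hydroxyglutarate, was also named after its values were seen. It averaged 28.2 ± 3.27, 40.9 ± 3.48 and 23.0 ± 3.86 CPM (SD, n = 3). D2hgdh was thus highest in CD43+ckit- (-0.54 for CD43++ckit+ minus CD43+ckit-, 0.83 for CD43+ckit- minus CD43-ckit-, adjusted p = 0.0227 and 0.00268).

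Downstream of TDG, base excision repair genes mostly fell between the CD43-positive populations and CD43-ckit-. Of 16 tested genes 3 were higher and 4 lower in CD43++ckit+ against CD43+ckit-, 11 and 2 against CD43-ckit-, and 10 and 2 in CD43+ckit- against CD43-ckit-. Parp1, the break sensor, averaged 316.1 ± 35.7, 195.0 ± 22.3 and 87.9 ± 19.5 CPM (SD, n = 3), and Lig3, a DNA ligase, 56.8 ± 6.95, 27.9 ± 3.60 and 24.2 ± 1.27 CPM. The deaminase and GADD45 genes, proposed aids of demethylation, were lower in CD43++ckit+ for 4 of 6 tested genes against CD43+ckit- and for 6 of 6 against CD43-ckit-, and none was higher. Apobec2 (-0.59 and -2.60), Apobec3 (-0.58 and -0.78) and Gadd45g (-1.18 and -1.54) were among them.

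Of 11 methyl-CpG readers, 1 was higher and 4 lower in CD43++ckit+ against CD43+ckit-, 4 and 5 against CD43-ckit-, and 5 and 3 in CD43+ckit- against CD43-ckit-. Mbd6 rose from 79.6 ± 6.63 to 175.2 ± 32.2 and 345.0 ± 67.0 CPM (SD, n = 3) and was lower in CD43++ckit+ than in either (-1.14 and -2.11). Mbd2, a reader of the NuRD repressor complex, was highest in CD43+ckit- (320.8 ± 32.8 CPM against 128.1 ± 9.70 and 236.6 ± 44.4 CPM). Mbd4, a glycosylase for mismatched thymine at CpG sites, stood at 18.8 ± 1.88, 22.6 ± 4.26 and 9.96 ± 0.81 CPM. It was called only in the comparisons with CD43-ckit-, higher by 0.92 in CD43++ckit+ and by 1.18 in CD43+ckit- on the log2 scale. The counts of these lists stand beside the shares of all genes given above for each comparison, and no list was tested as a set.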

How the data were processed

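The 9 RNA-seq libraries were TruSeq libraries of total RNA, per the labels' protocols. The authors deposited 1 table of whole-number read counts per gene symbol. Tools named per the submitters' processing notes, without roles, are HTSeq, RSEM, edgeR, TopHat2 2.0.4 and CASAVA 1.8. The build named there, GRCh38, is human while the symbols are those of mouse, so no coordinate is tied to the counts, and strand handling is not given in the sources used here.

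Of 24391 rows, 12573 passed filterByExpr (minimum count 10, minimum total 15). The counts were scaled by TMM, and 3 population means were fitted to 9 libraries with edgeR 4.0.16 in R 4.3.3 (estimateDisp, robust glmQLFit, glmQLFTest). P-values were adjusted by Benjamini-Hochberg over all tested genes, with a threshold of 0.05. Standard errors were approximated from the fold change and the F statistic. Ratios (0.5 added to each count) and differences from the replication mean (log2 CPM, prior count 2) were tested by exact two-sided permutation over the 3 populations. Likeness was searched among genes averaging at least 3 on the log2 CPM scale. Transcript lengths and 50-base words came from GENCODE M21. The promoter windows came from RefSeq and matched all 10 genes. The fit and the permutation test were checked on simulated data.

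The text names the 10 genes. From each of 8 pathway lists it names the 3 genes of smallest joint p (average log2 CPM at least 1), and for each tested gene the 3 nearest profiles. Genes named outside this rule (Usp7, Trim28, Pcna, Rrm2, Fen1, Hells, Cdca7, D2hgdh and the markers) were chosen after their values were seen. Some genes that the rule names are not reported here. The genes and lists were chosen with earlier results of these data known.

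Alternatives were DESeq2 1.42.0 and its size factors, library totals, other filters, replicate blocks, a fit of 2 populations and leaving out each library. A fit that left out each population's least correlated library (library 3 of CD43++ckit+, library 1 of the others) and a neutrophil covariate were chosen after seeing the data. Same-numbered libraries of CD43+ckit- and CD43-ckit- deviated together (correlations 0.525, 0.366 and 0.303). Libraries 2 and 3 correlated about as well across numbers. Library 2 of CD43+ckit- with library 3 of CD43-ckit- gave 0.343, and library 3 of CD43+ckit- with library 2 of CD43-ckit- gave 0.349. The numbers therefore do not settle a pairing, no label gives one, and the main fit used none. No 2 libraries of a population agreed within sampling noise (chi-square over its degrees of freedom at least 16.0), and none was counted as a duplicate.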

Additional observations from a re-analysis of the deposited data

How the results depend on the processing

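Dnmt1, Uhrf1, Dnmt3a and Dnmt3b kept each call they had under every alternative run, as did Tet3 and Idh2 for CD43++ckit+ against CD43-ckit-. The calls of Tet1, of Tet2, of Idh1, of Idh2 against CD43+ckit- and of Tet3 between CD43+ckit- and CD43-ckit- were lost in at least 1 fit, and the cause was not tested. Tet1 and Tdg rest on few reads. For CD43++ckit+ versus CD43+ckit-, 8557 genes in place of 5005 were called with the least correlated libraries left out, and leaving out 1 library gave 2 to 5 called enzymes (2 without library 1 of CD43++ckit+). For CD43+ckit- versus CD43-ckit-, the 5 calls became 3 with the strict filter, in the fit of 2 populations with no replicate block and with the neutrophil covariate, and 2 to 5 with 1 library left out (2 when the one left out was library 3 of CD43+ckit- or, from CD43-ckit-, library 2 or 3). With the strict filter and in the fit with no block, Tet3 was not called and Tet1 was not tested. With 1 library left out, 2 to 4 ratios and 2 to 8 differences from the replication mean passed. With the replicate block the 2-population fit of CD43+ckit- and CD43-ckit- called 8098 genes against 6515 with no block. It called 4 of the 10 enzymes, Dnmt1, Uhrf1, Tet3 and Idh1, and Tet1 was not tested there. In the comparisons with CD43++ckit+, where same-numbered libraries correlated between -0.617 and 0.447 and share only a number, the replicate block ended both Tet2 calls in fits of 2 populations (adjusted p = 0.0519 and 0.0522) and, over all 9 libraries, called Idh1 in CD43++ckit+ against CD43-ckit- (-0.43, adjusted p = 0.0397).

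Directions turned without a call in either setting in the following cases, and the cause was not tested. For CD43++ckit+ versus CD43+ckit-, Uhrf1 became 0.15 with library totals, Tet1 -0.81 without library 3 of CD43++ckit+ and -0.70 without the least correlated libraries, and Idh1 -0.0782 without them. For CD43++ckit+ versus CD43-ckit-, Idh1 became 0.46 with library totals. For CD43+ckit- versus CD43-ckit-, Tet2 became 0.48 with library totals, and Dnmt3a became -0.14 with DESeq2 size factors and with the DESeq2 test, -0.0702 with the strict filter, -0.0521 without the least correlated libraries and -0.0431 with the neutrophil covariate. With 1 library left out, Tet1 ranged from -0.81 to 1.22 in the first comparison and Dnmt3a from -0.0525 (without library 1 of CD43-ckit-) to 0.195 in the last. Of 30 levels per length, 23 moved by more than 1 SD with the median transcript.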
